A study of Mus musculus with 2 samples.

Results

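TNF superfamily receptors and ligands were examined in RNA-seq libraries of sorted CD4- mature thymocytes. The 10 genes were taken by symbol from the 48321 genes listed in the count files, and all 10 were found in both files. They comprise 7 receptors (Cd27, Tnfrsf4, Tnfrsf9, Tnfrsf18, Tnfrsf1a, Tnfrsf1b and Fas) and 3 ligands (Tnf, Lta and Ltb). The series holds a single genotype, MHC-II0:CD8ab Tg, on a C57Bl/6 background, in 2 libraries. These mice lack I-Aβ, and with it MHC class II, and the endogenous CD8α and CD8β chains, and they express both chains from cDNAs in the Rosa26 locus after recombination by Cd4-Cre, which acts in thymocytes from the stage at which Cd4 is transcribed. Transgenic CD8α at the cell surface was described as lower than the endogenous chain, and the age of the mice is not given in the sources used here. No wild-type library was analysed here, so each value is a level in the transgenic cells and no difference between genotypes was computed.

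Receptors of the TNF superfamily bind trimeric ligands through cysteine-rich extracellular domains. One class, which includes CD27, OX40, 4-1BB, GITR and TNFR2, recruits TRAF adaptors and activates NF-κB, and in T cells its members act as co-stimulatory receptors. A second class, which includes Fas and TNFR1, carries a cytoplasmic death domain and can engage caspase-8 through FADD. TNF acts as a homotrimer on TNFR1 and TNFR2. Lymphotoxin-α is secreted as a homotrimer that binds the same receptors and HVEM, or is held at the cell surface by lymphotoxin-β in a heterotrimer that binds the lymphotoxin-β receptor on stromal cells. In the thymus, such signals from T cells contribute to the maturation of medullary epithelial cells.

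Levels are given as CPM, the counts per 1000000 reads counted on genes, and genes are compared with each other only as CPM per kb of annotated exon. The total on genes was 16732644 reads in replicate 1 and 16245849 in replicate 2. A floor of 3 counts corresponds to 0.179 and 0.185 CPM, respectively. Confidence intervals and floors cover counting error only. The labels do not agree on the cells, since the titles name CD4-CD8- cells and the cell type field names CD8+ cells. All 15 markers of T cells and mature thymocytes on the list used here were at 1 CPM or more in both libraries. Of 7 markers of double-positive thymocytes, 1 (Ptcra) did not exceed the floor, and the list summed to 17.9 and 19.6 CPM, most of it Dntt with 13.4 and 13.0 CPM. Of 8 markers of myeloid and dendritic cells, 4 did not exceed the floor (Lyz2, Flt3, S100a8 and S100a9, the last pair at 0 counts), and the sums were 12.1 and 13.7 CPM, most of it Csf1r with 9.74 and 11.8 CPM. Of 5 markers of thymic epithelium, 3 did not exceed the floor (Foxn1, Krt5 and Krt8), and the sums were 3.71 and 4.19 CPM, most of it Epcam with 2.99 and 3.26 CPM. For B cells, Pax5 did not exceed the floor, Ms4a1 had 0.478 and 0.308 CPM and Cd79a 1.26 and 0.923 CPM, whereas Cd79b was present with 11.7 and 14.0 CPM. The part of these cells in the levels below was not tested. Foxp3, the factor that defines regulatory T cells, had 202 and 201 counts. The libraries differed in Xist, which silences an X chromosome in female cells, with 2.03 against 1555 CPM. Of Y-linked genes, Ddx3y was counted 2450 times in replicate 1 and 0 times in replicate 2, and Eif2s3y 1833 times and 1 time. The libraries thus hold cells of mice of different sex, which the labels do not give, and a difference between the replicates cannot be told apart from a difference of sex. A p-value that compares them describes only the spread between these libraries.

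All 10 members were at 1 CPM or more in both libraries. Per kb of exon they covered a 107-fold range, and the ligand gene Ltb and the receptor gene Cd27 stood at its top while the receptor genes Tnfrsf9 and Tnfrsf4 stood at its foot. Among 11833 protein-coding genes with at least 10 counts summed over the libraries, the median was 5.71 CPM per kb. Of the members, 8 lay above this median, and the other 2 were Tnfrsf9 and Tnfrsf4. From the highest to the lowest mean per kb, the order was Ltb, Cd27, Tnfrsf1b, Tnfrsf18, Tnfrsf1a, Fas, Lta, Tnf, Tnfrsf9 and Tnfrsf4. In 8 of the 9 neighbouring pairs of this order the libraries of one gene did not overlap those of the next. The exception was Fas and Lta, which changed places between the replicates and so did not differ beyond their spread per kb of exon. This depends on the length used. With the longest annotated transcript as length, the mean of Fas was 11.1 CPM per kb and that of Lta 8.22. The smallest p that an exact permutation test of 2 against 2 values allows is 0.333, so the order is given as a description.

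**Figure D1:**
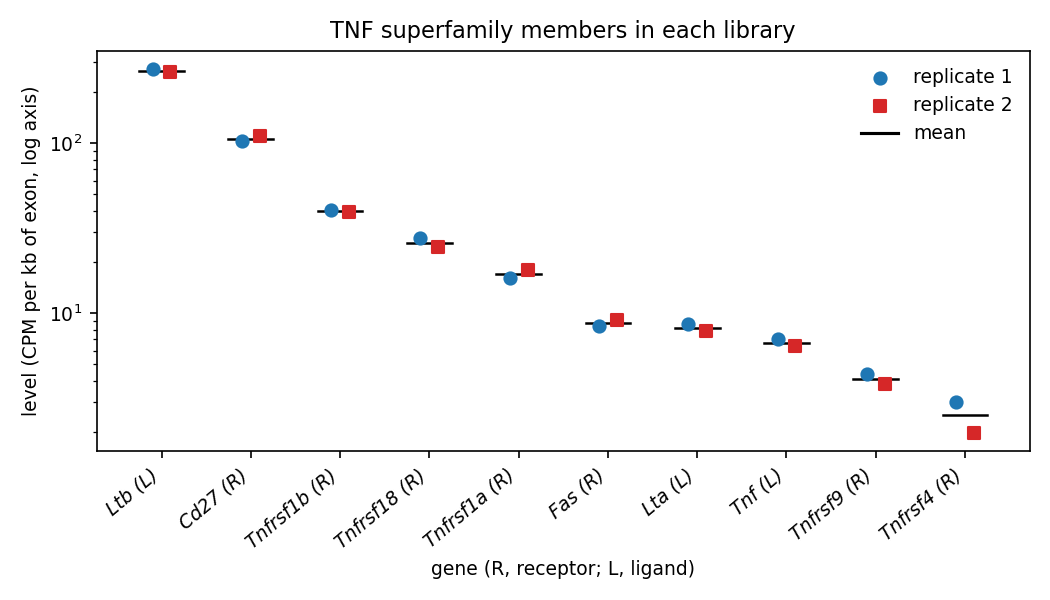
Level of each of the 10 members in CPM per kb of annotated exon on a log axis, with replicate 1 as circles, replicate 2 as squares and the mean of both as a bar. Ltb at 267 CPM per kb was the highest and Tnfrsf4 at 2.50 CPM per kb the lowest, and the points of a gene lie close together relative to the range between genes.

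The ligands were dominated by Ltb. It encodes lymphotoxin-β, the membrane-bound chain of the surface lymphotoxin heterotrimer. Ltb had 6918 counts in replicate 1 and 6415 in replicate 2, or 413 and 395 CPM, so both libraries were high. Its level was 404 ± 13.1 CPM (SD, n = 2) and 267 ± 8.66 CPM per kb (SD, n = 2), and it ranked 90 of the 11833 protein-coding genes per kb. Lta, which encodes lymphotoxin-α, had 199 and 176 counts, or 11.9 and 10.8 CPM. Its level was 8.22 ± 0.542 CPM per kb (SD, n = 2). Tnf, the gene of tumour necrosis factor, had 192 and 170 counts, or 11.5 and 10.5 CPM. The level of Tnf was 6.69 ± 0.436 CPM per kb (SD, n = 2). Lta and Tnf thus lay close to the middle of these 11833 genes, which have at least 10 counts, at ranks 4779 and 5458.

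The difference between Ltb and the other ligands was much larger than the spread between the libraries. Per kb, Ltb was higher than Lta by 31.7 times in replicate 1 and 33.3 times in replicate 2. It was higher than Tnf by 39.0 and 40.8 times. Ltb held 94.7% of the summed level per kb of the 3 ligand genes. Lta and Tnf were close to each other, and the ratio of Tnf to Lta per kb was 0.814 in replicate 1 and 0.815 in replicate 2.

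The ligand genes are direct neighbours in the MHC region of chromosome 17, where they span 10913 bases of GRCm38. Ltb lies at chr17:35194439-35196320 on the plus strand, Tnf at chr17:35199381-35202007 on the minus strand and Lta at chr17:35203165-35205351 on the minus strand. The gap between the ends of Ltb and Tnf, which face each other, is 3060 bases, and the gap between Tnf and Lta is 1157 bases. No exon of another gene in the GENCODE M21 annotation overlaps any of them, and none of their stretches of 50 bases, the read length, occurs in transcripts of other genes. Because the genes lie so close but differ so much in level, the sequences before their starts are shown, taken from the RefSeq promoter table of GRCm38.p6. For each gene the 170 bases nearest to the start that lie outside annotated exons are given in the direction of the gene, and capitals mark matches to the motifs named below. Ltb is from chr17:35194269-35194438 on the plus strand, Tnf from chr17:35202008-35202177 on the minus strand and Lta from chr17:35205352-35205521 on the minus strand. Relative to the RefSeq start, the stretch of Ltb runs from -238 to -69 and those of Tnf and Lta from -170 to -1. The RefSeq start of Ltb lies downstream of the start of the gene given above.
Ltb: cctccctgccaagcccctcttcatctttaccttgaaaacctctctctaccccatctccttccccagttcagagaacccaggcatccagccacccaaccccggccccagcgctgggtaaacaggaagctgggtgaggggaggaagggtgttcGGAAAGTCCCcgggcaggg
Tnf: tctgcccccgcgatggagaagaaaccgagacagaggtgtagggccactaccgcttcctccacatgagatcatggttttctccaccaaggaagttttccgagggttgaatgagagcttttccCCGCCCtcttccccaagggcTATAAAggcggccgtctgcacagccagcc
Lta: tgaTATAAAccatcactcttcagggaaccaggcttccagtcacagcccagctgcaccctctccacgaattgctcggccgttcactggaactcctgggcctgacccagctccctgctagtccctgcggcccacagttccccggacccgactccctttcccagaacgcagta

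Motifs were searched on both strands in the 250 bases before each RefSeq start, of which the members had 11, since Tnfrsf9 is listed with 2. The letters TATAAA were found before Tnf, at positions -29 to -24 relative to the RefSeq start, and before Lta, at positions -167 to -162. They were found before 12.4% of 32851 mouse promoters. A match to the NF-κB consensus, the decamer bound by dimers of the NF-κB family, was found before Ltb on the opposite strand. It lies at positions -87 to -78 relative to the RefSeq start. The consensus was also matched before the second start listed for Tnfrsf9, from -43 to -33, where overlapping matches on both strands fall within an annotated exon. The NF-κB consensus was found before 7.25% of all promoters. GGGCGG, the GC box, was found before Tnf, Tnfrsf1b, Tnfrsf9 and Fas and before 32.7% of all promoters, and TGANTCA, the AP-1 site, before Tnfrsf9 and Fas and before 6.75% of all promoters. The AP-1 letters read the same on both strands, and before Tnfrsf9 they do not overlap the NF-κB matches. Cd27, Tnfrsf4, Tnfrsf18 and Tnfrsf1a had none of these letters in the window. The GC content of the 250 bases was 63.2% for Ltb, 57.6% for Tnf and 58.4% for Lta, with a median of 52.4% over all promoters. A match is a description of the letters and does not show that a factor binds there.

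Among the co-stimulatory receptors, Cd27 was the most abundant per kb. CD27 is found on most T cells and supports their survival after its ligand CD70 binds. Cd27, at chr6:125232622-125237010 on the minus strand, had 3984 counts in replicate 1 and 4134 in replicate 2, or 238 and 254 CPM. Its level was 246 ± 11.6 CPM (SD, n = 2) and 106 ± 4.97 CPM per kb (SD, n = 2), and it ranked 271 of the 11833 protein-coding genes. Both libraries of Cd27 were above every library of the other receptors. The level of Ltb per kb of exon was still 2.67 times that of Cd27 in replicate 1 and 2.38 times in replicate 2. The gap was smaller with the longest annotated transcript as length, where the means were 285 CPM per kb for Ltb and 158 for Cd27.

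Tnfrsf18 and Tnfrsf4 encode GITR and OX40, co-stimulatory receptors that are carried by regulatory T cells and are induced on other T cells after activation. They lie side by side on chromosome 4, both on the plus strand, with 9551 bases and no protein-coding gene between them. Tnfrsf18, at chr4:156026164-156028895, had 702 and 604 counts, or 42.0 and 37.2 CPM. Tnfrsf4, at chr4:156013843-156016612, had 69 and 44 counts, or 4.12 and 2.71 CPM. Per kb, Tnfrsf18 was at 26.0 ± 2.22 CPM (SD, n = 2) and Tnfrsf4 at 2.50 ± 0.733 CPM (SD, n = 2), so that Tnfrsf18 was 9.11 times higher in replicate 1 and 12.3 times higher in replicate 2. Tnfrsf4 had the fewest counts of the members, and its SD was 29.3% of its mean, against 1.43% to 9.39% for the other members. The mean level of Tnfrsf4 was drawn from 113 counts in all, and it was 20.7% higher than the mean in replicate 1 and 20.7% lower in replicate 2.

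Tnfrsf9 encodes 4-1BB, a co-stimulatory receptor that is induced by TCR signals and, like OX40 and GITR, is carried by regulatory T cells. It lies at chr4:150914562-150946102 on the plus strand. Tnfrsf9 had 200 and 170 counts, or 11.95 and 10.5 CPM, and its level was 4.12 ± 0.387 CPM per kb (SD, n = 2). Both libraries were below both libraries of Tnf and above both of Tnfrsf4. Cd27 was 23.3 times higher than Tnfrsf9 per kb in replicate 1 and 28.4 times higher in replicate 2. Of the regulatory T cell markers, all 4 were at 1 CPM or more in both libraries. Summed, they had 28.1 and 25.9 CPM, with Foxp3 at 12.1 and 12.4 CPM and Il2ra at 2.93 and 3.45 CPM. The part of such cells in the levels of Tnfrsf4, Tnfrsf9 and Tnfrsf18 was not tested. In a bulk sample, a few cells with much RNA of a gene and many cells with little cannot be told apart.

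The level of Tnfrsf18 carries a further limit. Of its 1524 bases of annotated exon, 414 overlap exons of Gm16008 on the opposite strand, and 18.7% of the stretches of 50 bases in its transcripts occur in those of Gm16008. Gm16008 itself had 218 and 168 counts. The strand setting of the counting is not given in the sources used here, and the assignment of reads in the overlap was not tested. With the overlapping bases left out of its length, the level of Tnfrsf18 would be 35.6 CPM per kb, and its place in the order would be the same. In Cd27, 129 bases of exon overlap the microRNA gene Mir8113, which had 0 counts in both libraries. The other 8 members overlap no exon of another gene and share no stretch of 50 bases with one.

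The receptors for TNF itself were both found, and Tnfrsf1b was the higher. Tnfrsf1b encodes TNFR2, which has no death domain and is largely restricted to haematopoietic and endothelial cells. It lies at chr4:145213463-145246870 on the minus strand and had 2578 and 2453 counts, or 154 and 151 CPM. Tnfrsf1a encodes TNFR1, the death domain receptor of TNF that most cells carry. It lies at chr6:125349362-125362484 on the plus strand and had 695 and 759 counts, or 41.5 and 46.7 CPM. The level was 39.95 ± 0.570 CPM per kb (SD, n = 2) for Tnfrsf1b and 17.0 ± 1.41 CPM per kb (SD, n = 2) for Tnfrsf1a. Tnfrsf1b was thus 2.52 times higher than Tnfrsf1a in replicate 1 and 2.19 times higher in replicate 2, and the libraries of these genes did not overlap.

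Fas was lower than both. It encodes the death receptor CD95, which triggers apoptosis after Fas ligand binds. Fas, at chr19:34290666-34327772 on the plus strand, had 289 and 304 counts, or 17.3 and 18.7 CPM, and its level was 8.73 ± 0.494 CPM per kb (SD, n = 2). Per kb, Tnfrsf1a was higher than Fas by 1.91 times in replicate 1 and 1.99 times in replicate 2.

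**Figure D2:**
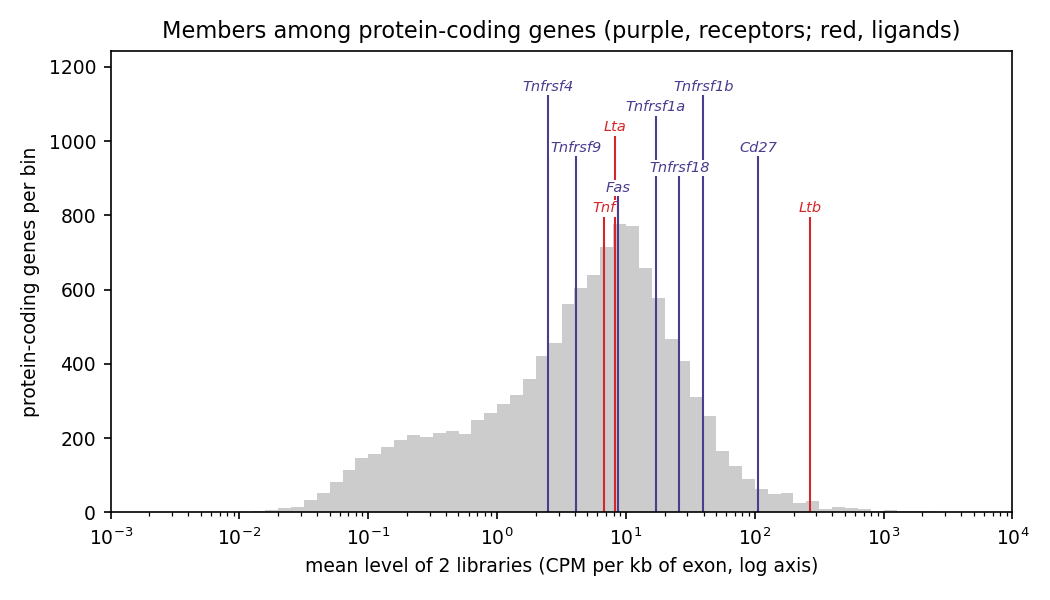
Number of protein-coding genes (bars) by mean level of both libraries in CPM per kb of annotated exon, on a log axis, with the 7 receptor genes as purple lines and the 3 ligand genes as red lines. Ltb and Cd27 lie in the upper tail, at ranks 90 and 271 of 11833 genes, while Lta, Tnf and Fas lie near the peak and Tnfrsf4 lies below the median of 5.71.

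The binding partners of the members were then read in the same libraries. For the co-stimulatory receptors, the ligand genes were low or had no counts. Cd70, the ligand gene of CD27, and Tnfsf18, the ligand gene of GITR, had 0 counts in both libraries, which allows levels of up to 0.179 and 0.185 CPM. Tnfsf4, which encodes OX40 ligand, had 9 and 6 counts, or 0.538 and 0.369 CPM. Tnfsf9, which encodes 4-1BB ligand, had 46 and 37 counts, and per kb its receptor gene Tnfrsf9 was higher by 2.06 times in replicate 1 and 2.18 times in replicate 2. These ligands are known mainly from antigen-presenting cells. Myeloid and dendritic cells are among these, and their markers summed to 12.1 and 13.7 CPM, most of it Csf1r with 9.74 and 11.8 CPM. The part of such cells in the levels of these ligand genes was not tested.

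Fas and its ligand were at like levels per kb of exon. Fasl, which encodes Fas ligand, a product of cytotoxic T cells and NK cells, had 306 and 271 counts, or 18.3 and 16.7 CPM. The level of Fasl was 9.03 ± 0.586 CPM per kb (SD, n = 2), and the ratio of Fas to Fasl per kb was 0.887 in replicate 1 and 1.05 in replicate 2. The order of these genes per kb of exon thus differed between the libraries. With the longest annotated transcript as length, the mean of Fas was 11.1 CPM per kb against 9.03 for Fasl.

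For lymphotoxin, transcripts of Lta and Ltb were counted in both libraries while the gene of the receptor for the heterotrimer was scarcely counted. Ltbr, which encodes the lymphotoxin-β receptor and lies between Cd27 and Tnfrsf1a on chromosome 6, had 6 and 2 counts, or 0.359 and 0.123 CPM. The count of replicate 2 was under the floor. Tnfrsf14 encodes HVEM, which binds lymphotoxin-α and LIGHT. It had 607 and 879 counts, or 36.3 and 54.1 CPM, and its level was 31.4 ± 8.77 CPM per kb (SD, n = 2).

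**Figure D3:**
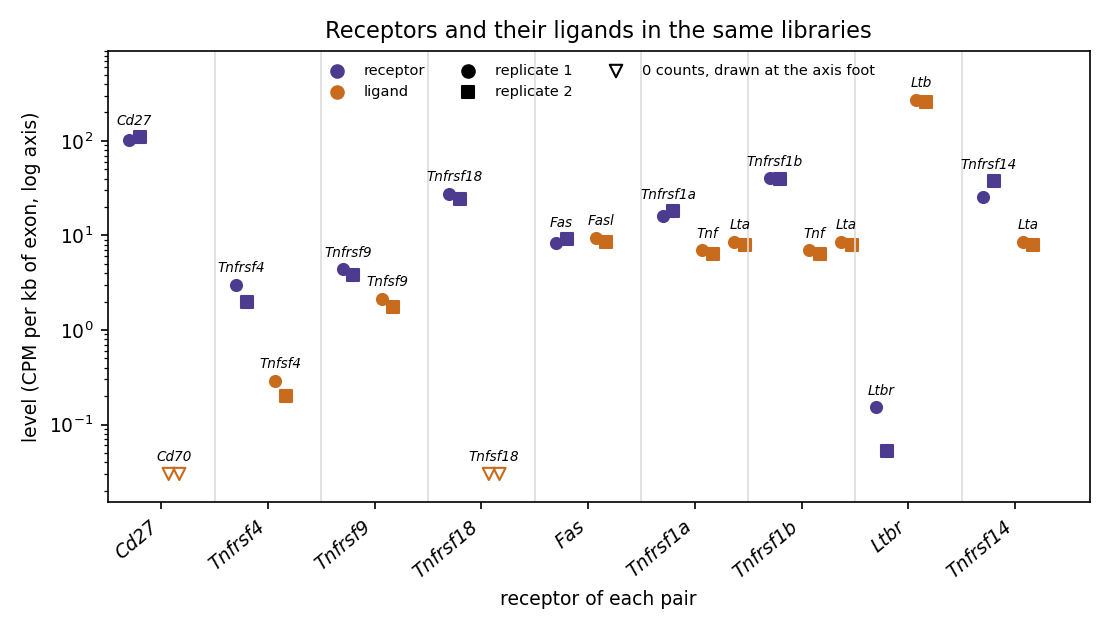
Receptor genes (purple) and the genes of their ligands (orange) in CPM per kb of annotated exon on a log axis, with replicate 1 as circles and replicate 2 as squares. Open triangles at the foot of the axis mark genes with 0 counts and are not values. Cd27 and Tnfrsf18 stand high without counts for Cd70 or Tnfsf18, Fas and Fasl lie at about 9 CPM per kb, and Ltb stands far above Ltbr.

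The counts of each member in the libraries were set against each other in an exact binomial test, two-sided, with Benjamini-Hochberg adjustment over the 15949 genes with at least 10 counts. A difference was called at an adjusted p under 0.05 together with at least 2-fold. None of the 10 members was called (0 of 10), and 1.52% of all genes tested were. With the exact test of edgeR and a biological coefficient of variation of 0.1, 0 members were called as well, against 0.376% of all genes. Of the 10 members, 5 had an unadjusted p under 0.05 in the binomial test, against 27.7% of all genes. That share includes genes with fewer counts than any member, in which the test detects only larger differences. The median absolute log2 ratio was 0.134 for the members and 0.120 for the 10732 tested genes with at least the lowest member count. Without the minimum fold, 2 of the 10 members passed, against 16.3% of all genes. Cd27 was higher in replicate 2, by 0.10 on the log2 scale with an adjusted p of 0.0220 in the exact binomial test. Ltb was lower in replicate 2, with a log2 ratio of -0.07 and an adjusted p of 0.0495. These differences are far smaller than those between the members. Cd27 did not pass with TMM library sizes, where its log2 ratio was 0.02 and its adjusted p in the binomial test 0.832. Ltb then had a log2 ratio of -0.14 and an adjusted p of 3.5e-07, and Tnfrsf18 passed as well. Tnfrsf18 and Ltb also passed with DESeq2 size factors and with totals without mitochondrial and ribosomal RNA genes. The adjusted p of Cd27 in the binomial test was 0.591 and 0.429 in these settings, respectively.

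The widest interval among the members was that of Tnfrsf4, for which the ratio of replicate 2 to replicate 1 was 0.657 with an exact 95% interval of 0.439 to 0.972. Its adjusted p was 0.130 in the exact binomial test. For Tnfrsf1b, with more counts, the ratio was 0.980 and the interval 0.927 to 1.04. Lta and Tnf had ratios of 0.911 and 0.912, and both intervals included 1. Of the members, 7 were lower in replicate 2 and 3 (Cd27, Tnfrsf1a and Fas) were higher, and the split was 7 and 3 also with TMM, with DESeq2 size factors and with totals that exclude mitochondrial and ribosomal RNA. Of all genes tested, 34.6% were lower in replicate 2 with totals on genes, and 50.5% with TMM.

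Among the partners, Tnfrsf14 was higher in replicate 2. Its ratio of replicate 2 to replicate 1 was 1.49, with an exact 95% interval of 1.34 to 1.66 and an adjusted p of 1.8e-12 in the exact binomial test, which did not reach the 2-fold set for a call. When edgeR's exact test was run with a coefficient of 0.1, the adjusted p of Tnfrsf14 was 0.468. The summed level of 6 markers of innate-like T, γδ T and NK cells also differed, from 272 CPM in replicate 1 to 448 CPM in replicate 2. Eomes, a factor of innate memory-like CD8 T cells, held most of this sum with 196 and 355 CPM. Tbx21 had 27.6 and 30.3 CPM. Of the 6 markers, 1 was called, against 1.52% of all genes. It was Ncr1, with 2.69 and 6.89 CPM. The part of innate-like T, γδ T and NK cells in the level of Tnfrsf14 was not tested.

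**Figure D4:**
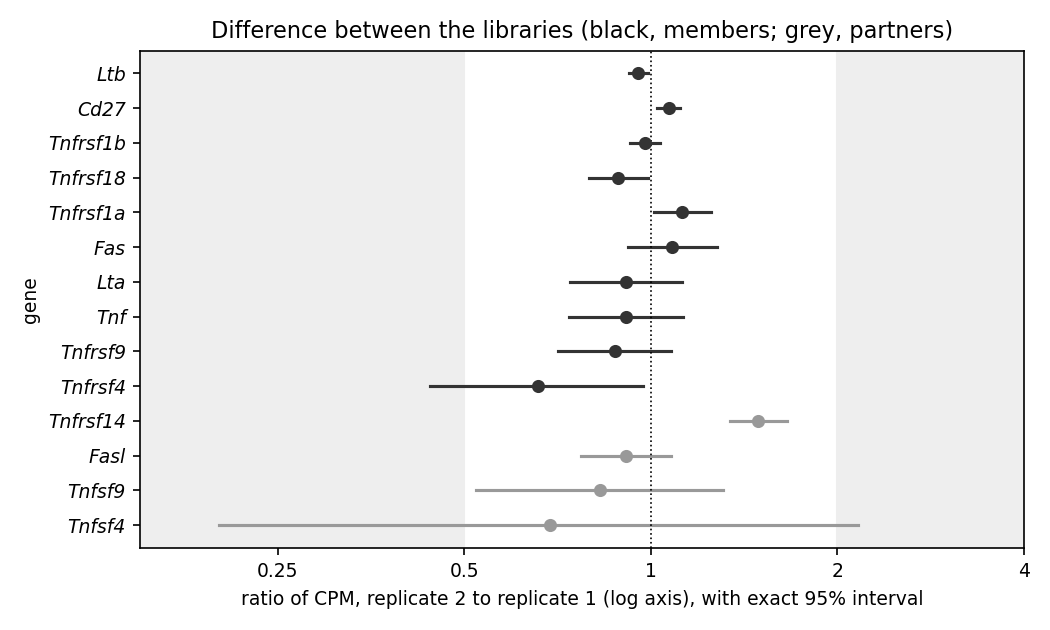
Ratio of CPM in replicate 2 to replicate 1 on a log axis, with exact 95% intervals for counting error, for the 10 members (black) and for the 4 partner genes with at least 10 counts (grey); shaded areas lie beyond a 2-fold difference. All points of the members lie between 0.657 and 1.12, and Tnfrsf14 at 1.49 has an interval apart from 1. Among the members, the intervals of Cd27, Ltb, Tnfrsf18, Tnfrsf1a and Tnfrsf4 also exclude 1.

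The rest of the superfamily was read from a list of 19 other receptors and 10 other ligands. Of the receptors, 8 were at 1 CPM or more in both libraries, 7 did not exceed the floor, and none differed between the libraries by the call rule (0 of 11 tested). Relt, a receptor named for lymphoid tissue, had 63.6 and 59.5 CPM and was the highest of these receptors per kb, at 18.8 ± 0.889 CPM per kb (SD, n = 2). Tnfrsf26 had 32.0 and 31.2 CPM, and Tnfrsf13b, which encodes TACI, had 27.8 and 28.1 CPM. Per kb, these were at 9.83 ± 0.181 and 9.85 ± 0.0695 CPM per kb (SD, n = 2) and did not differ beyond their spread. Tnfrsf8, which encodes CD30, had 0 and 2 counts, although the gene of its ligand, Tnfsf8, had 82.1 and 73.8 CPM and was the highest of the other ligands per kb, at 20.5 ± 1.54 CPM per kb (SD, n = 2). Tnfsf10, which encodes TRAIL, was at 71.5 and 77.2 CPM, and Tnfsf14, which encodes LIGHT, was at 21.8 and 25.9 CPM. Their means were 14.1 ± 0.759 and 12.9 ± 1.57 CPM per kb (SD, n = 2), and the ranges of the libraries overlapped. LIGHT shares HVEM and the lymphotoxin-β receptor with lymphotoxin. Of the other ligands, 5 were at 1 CPM or more in both libraries, 3 did not exceed the floor and none of the 5 tested was called.

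The adaptors and enzymes downstream of these receptors were all present. All 29 genes of the list were at 1 CPM or more in both libraries, with a median of 72.8 CPM, and 0 of 29 were called between the libraries. Without the minimum fold, 7 of 29 passed, against 16.3% of all genes, with 1 higher in replicate 1 and 6 higher in replicate 2. Of all genes that passed, 450 were higher in replicate 1 and 2146 in replicate 2. The share of all genes includes genes with fewer counts, in which the test detects only larger differences. Rbck1, a subunit of the linear ubiquitin ligase that acts at the TNFR1 complex, had 222 and 235 CPM and was the highest of the list per kb, at 49.7 ± 1.98 CPM per kb (SD, n = 2). Cyld, a deubiquitinase that limits NF-κB activation, had 179 and 185 CPM, and Tab2, an adaptor of the TAK1 kinase, had 148 and 163 CPM. Per kb, Tab2 was the higher of this pair, at 25.4 ± 1.74 CPM per kb (SD, n = 2) against 14.5 ± 0.340 for Cyld. The genes that act next to the death domain receptors differed in level per kb. Casp8, the initiator caspase, was at 45.0 ± 2.74 CPM per kb (SD, n = 2), Cflar, which encodes its inhibitor c-FLIP, was at 10.9 ± 0.288 CPM per kb (SD, n = 2), and Fadd, which links Fas to caspase-8, was at 3.59 ± 0.251 CPM per kb (SD, n = 2). These 3 genes were chosen after their values were seen.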

How the data were processed

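Poly(A) RNA of sorted CD4- mature thymocytes was read from a single end. The authors aligned these reads to mm10 with TopHat 2.1.1 and deposited raw counts per gene from HTSeq 0.6.1. The annotation and strand setting are not given in the sources used here, and reads aligned to several places were not counted. Rows starting with __ were left out of the totals. They hold 55.9% of uniquely aligned reads as assigned to no gene in both libraries. CPM was computed from the totals on genes, and exon lengths and positions were taken from GENCODE M21 (GRCm38), in which 46294 of 48321 symbols named 1 gene. Counts were compared between the libraries across all genes by an exact binomial test (scipy 1.17.1). It was run on simulated counts that held counting error only. That run cannot show how the test behaves where libraries differ beyond counting error. Alternatives used edgeR 4.0.16 and DESeq2 1.42.0. edgeR's quasi-likelihood test has no contrast in a single group. Intervals for ratios are exact (Clopper-Pearson). The members and lists were chosen with earlier results of these data known. Named genes are the members, every partner, and in each other list the 3 genes highest by CPM, a choice not corrected for length. Other genes are marker genes or stand as marked. No table of protein sequences was used here. Python 3.11.15 and R 4.3.3 were used. A marker on one of the lists is not reported here.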

Additional observations from a re-analysis of the deposited data

How the results depend on the processing

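The number of genes that differed between the libraries was 242 and stayed within 1.5 times of this with TMM, DESeq2 size factors, totals without 392 mitochondrial and ribosomal RNA genes and a minimum of 1 count. It was 55 with at least 100 counts, 60 when edgeR's exact test assumed a biological coefficient of variation of 0.1 and 2596 without a minimum fold, each of which changes the number of genes that can pass by its construction. The split was 92 higher in replicate 1 and 150 in replicate 2 with totals on genes, and 100 and 98 with TMM. No member was called under any of these alternatives except the one without a minimum fold, under which 2 members passed. The number of members at 1 CPM or more was 10 with every scaling and with either replicate left out, and 9 at 5 CPM. The order per kb kept 9 of 9 neighbouring pairs with the longest transcript as length, and also with exons outside other genes, which was chosen after seeing the data. It kept 8 to 9 of them with a replicate left out. Without mitochondrial and ribosomal RNA genes in the totals, levels of members were 15.8% to 16.3% higher. The test between libraries has no leave-one-out value, since it needs both. No paired analysis was possible because the series holds a single group. Depth limits Tnfrsf4 most among the members.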
